A study of Mus musculus with 12 samples.

Results

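The interferon-stimulated genes examined here were 9 genes, *Ifit1*, *Ifit2*, *Ifit3*, *Isg15*, *Irf7*, *Irf1*, *Stat2*, *Oasl2* and *Bst2*, picked by symbol out of 19424 genes, of which 17827 had reads. Their transcripts were counted in whole embryonic hearts of CD1 mice. Control embryos were *Mesp1Cre*;*Hira*+/fl and mutant embryos were *Mesp1Cre*;*Hira*-/fl, and both were taken at embryonic day 11.5 (E11.5) and at E12.5, with 3 libraries in each of 4 groups. Every embryo therefore carried *Mesp1Cre* and a floxed *Hira* allele. The other allele was wild type in controls and null in mutants, so that a recombined control cell keeps a single *Hira* copy and a recombined mutant cell keeps none. *Mesp1Cre* recombines in the early mesoderm that gives rise to cardiomyocytes, endothelium, epicardium and smooth muscle, and cells of other origin in the heart keep their floxed allele. HIRA is the chaperone that places the histone variant H3.3 on chromatin outside DNA replication. The question put to the 9 genes was whether loss of the chaperone goes with an interferon response.

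Type I interferons are secreted when sensors of foreign or misplaced nucleic acid signal through adaptors to the interferon regulatory factors IRF3 and IRF7. They bind a receptor on neighbouring cells, the kinases JAK1 and TYK2 are activated, and STAT2 and IRF9 enter a complex that binds the interferon-stimulated response element (ISRE) in the promoters of antiviral genes. Interferon gamma acts through a separate receptor and the gamma-activated site (GAS), and *Irf1* is a classical target. In a tissue responding to type I interferon the *Ifit* genes, *Isg15*, *Irf7* and *Oasl2* are among the most strongly induced transcripts.

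Promoter sequences from RefSeq (GRCm38.p6) were read for the element that the pathway binds. The 250 bases upstream of each start site were searched on both strands for the ISRE core GAAANNGAAA (TTTCNNTTTC on the other strand) and for the GAS core TTCNNNGAA, which reads the same on both strands. All 9 genes were matched, with 11 start sites between them. The ISRE core was found upstream of 5 of the 9 genes, *Bst2*, *Isg15*, *Ifit1*, *Ifit3* and *Stat2*. Counted by promoter, it was in 5 of the 11 member promoters and in 2.98% of 32851 promoters of the same length. The GAS core was found upstream of 3 genes, *Bst2*, *Irf1* and *Ifit2*, in 3 of the 11 member promoters and in 7.02% of all promoters. A match is a description of the letters, not of binding. A missing match in this window does not show that the gene lacks the element. The windows of *Bst2*, the member whose transcript was called in mutant hearts, of *Isg15*, *Ifit1* and *Ifit3*, which carry the same core but had few reads, and of *Irf1*, for its GAS core, are printed with matches in capitals, 5′ to 3′ along each gene.
Bst2: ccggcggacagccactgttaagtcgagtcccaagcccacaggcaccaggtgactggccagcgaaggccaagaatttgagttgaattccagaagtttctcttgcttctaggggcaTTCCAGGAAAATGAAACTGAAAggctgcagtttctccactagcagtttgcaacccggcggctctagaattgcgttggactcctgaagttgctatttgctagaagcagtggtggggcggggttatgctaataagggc
Isg15: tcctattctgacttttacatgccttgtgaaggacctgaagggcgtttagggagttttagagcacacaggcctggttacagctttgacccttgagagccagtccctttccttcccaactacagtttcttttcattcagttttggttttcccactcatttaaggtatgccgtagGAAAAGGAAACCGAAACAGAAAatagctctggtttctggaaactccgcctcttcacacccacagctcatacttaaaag
Ifit1: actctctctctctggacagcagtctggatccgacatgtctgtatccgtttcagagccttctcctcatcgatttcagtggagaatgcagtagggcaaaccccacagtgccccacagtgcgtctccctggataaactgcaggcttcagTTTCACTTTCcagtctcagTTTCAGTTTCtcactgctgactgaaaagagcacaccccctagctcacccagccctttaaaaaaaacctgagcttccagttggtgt
Ifit3: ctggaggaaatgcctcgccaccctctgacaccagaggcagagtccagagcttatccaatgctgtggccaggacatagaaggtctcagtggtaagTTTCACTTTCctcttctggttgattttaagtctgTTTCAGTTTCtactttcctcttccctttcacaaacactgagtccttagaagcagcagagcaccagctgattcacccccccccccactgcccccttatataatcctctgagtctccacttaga
Irf1: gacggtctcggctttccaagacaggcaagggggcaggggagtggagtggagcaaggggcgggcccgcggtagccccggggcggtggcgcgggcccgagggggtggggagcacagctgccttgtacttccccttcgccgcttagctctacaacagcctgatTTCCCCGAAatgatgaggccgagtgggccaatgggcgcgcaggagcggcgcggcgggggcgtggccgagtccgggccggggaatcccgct

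The *Bst2* window is chr8:71537473-71537722 on the minus strand. Its 2 ISRE cores begin 130 and 124 bases before the start and overlap each other, and the GAS core begins 136 bases before the start and overlaps the first of them. The *Isg15* window, chr4:156200819-156201068 on the minus strand, holds 3 overlapping cores that begin 78, 72 and 66 bases before the start. The *Ifit1* window (chr19:34640639-34640888, plus strand) and the *Ifit3* window (chr19:34583279-34583528, plus strand) hold 2 separate cores each. In *Irf1* (chr11:53769764-53770013, plus strand) the GAS core begins 90 bases before the first of its start sites.

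Sequencing gave 11994148 to 17483982 counted reads per library. *Hira* itself was counted over the whole gene (chromosome 16, 18877037 to 18970309), so a deleted exon is not resolved: E11.5 controls had 78.1 ± 8.89 CPM (SD, n = 3) and E11.5 mutants 64.7 ± 8.42, and E12.5 hearts had 75.1 ± 13.1 and 73.7 ± 5.19, which does not check the labels. CPM are counts scaled to library size with the TMM factors. The genotypes were compared with edgeR's quasi-likelihood test on genes with a mean of at least 0.5 RPKM (reads scaled for library size and transcript length), and a gene was called when its Benjamini-Hochberg adjusted p over all tested genes was at most 0.05 and its fold change at least 1.5. At E11.5, 14 of 12197 genes were called (0.115%), and at E12.5 362 of 12257 (2.95%). All 3 E11.5 control embryos were male by Y-linked reads, against 1 of 3 in each other group. Cardiomyocyte markers summed to between 25820 and 34930 CPM in the 12 libraries. The labels do not say whether each library came from its own embryo or from a pool, so p-values measure the spread between these libraries, which may be in part technical. In whole hearts, fewer cells of a type and less RNA per cell cannot be told apart.

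Per length of transcript, the 9 genes fell into 2 ranges of expression. *Bst2* was highest in every group, with a mean of 18.4 RPKM over the 12 libraries, followed by *Stat2* (4.73), *Ifit2* (4.24) and *Irf1* (3.75). *Isg15* (0.644 RPKM), *Oasl2* (0.424), *Irf7* (0.187), *Ifit3* (0.110) and *Ifit1* (0.0435) were low in control and mutant hearts alike. *Bst2* did not overlap the next gene in any group. *Stat2*, *Ifit2* and *Irf1* overlapped among themselves in 3 of the 4 groups and were separate in E12.5 controls, and *Irf1* was above the next gene, *Isg15* or *Oasl2*, in all libraries of each group. Of the 9 genes, 5 passed the filter on low values at each stage, *Bst2*, *Stat2*, *Ifit2*, *Irf1* and *Isg15*, and 4 did not. *Isg15* passed through the controls alone (0.902 RPKM in controls and 0.477 in mutants at E11.5, 0.727 and 0.470 at E12.5), and at E11.5 through a single control library, without which it was not tested.

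**Figure D1:**
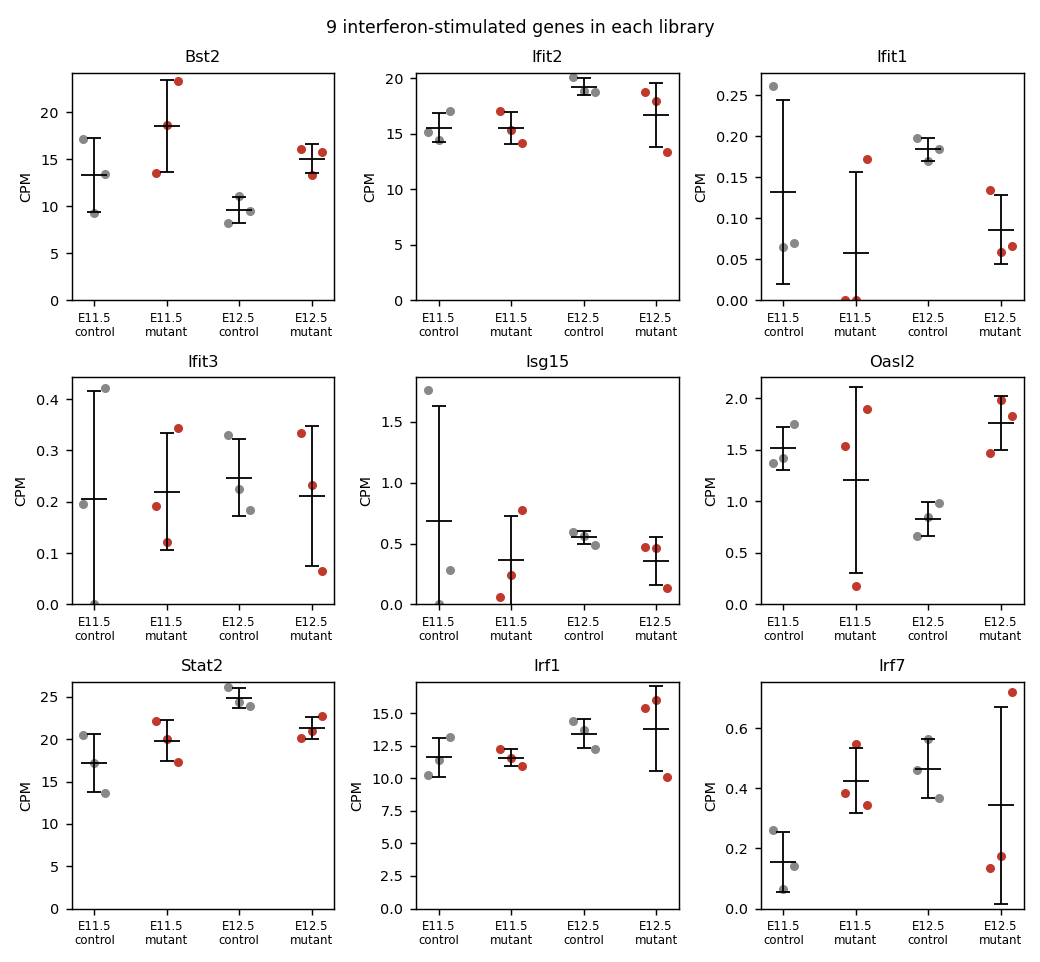
Expression of each of the 9 genes in CPM, on a linear axis that starts at 0 and differs between panels; points are the 3 libraries of a group, the bar is the mean and the whiskers are 1 SD. *Bst2* and *Oasl2* lie higher in all 3 E12.5 mutants than in the controls, and *Ifit1*, *Ifit3*, *Isg15* and *Irf7* stay at or below 1.76 CPM in every library.

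*Bst2* encodes tetherin, a membrane protein that holds budding virus particles at the cell surface (chromosome 8, 71534264 to 71537437, minus strand). It had 262, 144 and 192 reads in the E11.5 controls and 211, 306 and 271 in the E11.5 mutants. At E12.5 it had 125, 196 and 155 reads in controls and 241, 228 and 241 in mutants. The genotypes overlapped at E11.5 and did not overlap at E12.5, where all mutants were higher. In CPM, the means were 9.61 ± 1.41 (SD, n = 3) in control and 15.1 ± 1.53 in mutant hearts at E12.5, a difference of 0.66 on the log2 scale (adjusted p = 0.029, SE 0.15, 95% interval 0.34 to 0.98), so *Bst2* rose 1.58-fold. At E11.5 the means were 13.3 ± 3.91 and 18.5 ± 4.90 CPM, and the mutant effect of 0.48 log2 units (adjusted p = 0.619, SE 0.27, interval -0.13 to 1.09) did not pass. Over both stages, with stage as a covariate, the log2 fold change was 0.57 (adjusted p = 0.0449, SE 0.16) with a fold of 1.48, just under the fold limit. That fit uses the same libraries as the single-stage fits and is not separate evidence.

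The E12.5 call of *Bst2* was close to its threshold. It was lost when E12.5 control 1 (0.56, adjusted p = 0.105), control 3 (0.65, 0.0534), mutant 1 (0.61, 0.0994) or mutant 3 (0.62, 0.0699) was left out, and in a fit over all 12 libraries (0.66, adjusted p = 0.234), while the log2 fold change itself stayed between 0.56 and 0.77. With a term for the sex of the embryo it was 0.66 (adjusted p = 0.0354) at E12.5 and 0.83 (adjusted p = 0.206) at E11.5.

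*Stat2*, the transcription factor that type I signalling joins to IRF9, lies on chromosome 10 from 128270576 to 128292849. Its reads numbered 314, 267 and 195 in E11.5 controls and 345, 330 and 201 in E11.5 mutants. They numbered 397, 433 and 389 in E12.5 controls and 302, 359 and 348 in E12.5 mutants. After scaling, the stages differed in pattern: the genotypes overlapped at E11.5 and all E12.5 mutants were lower than all controls. E12.5 control and mutant levels were 24.8 ± 1.19 and 21.3 ± 1.32 CPM, an effect of -0.21 on the log2 scale (adjusted p = 0.243, SE 0.10, interval -0.42 to 0.00) that did not pass. At E11.5 they were 17.2 ± 3.42 and 19.8 ± 2.42 CPM (0.22, adjusted p = 0.806, SE 0.19). The difference between the stages' effects, -0.43 (adjusted p = 0.956, SE 0.21), did not pass either.

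*Irf1*, a transcription factor of the interferon gamma response (chromosome 11, 53770014 to 53778374), had 157, 176 and 188 reads in E11.5 controls and 191, 190 and 127 in mutants. In E12.5 hearts it had 218, 243 and 199 reads in controls and 230, 274 and 154 in mutants. Control and mutant libraries overlapped at both stages. The log2 fold change was 0.01 (adjusted p = 0.996, SE 0.17, interval -0.38 to 0.40) at E11.5 and 0.06 (adjusted p = 0.879, SE 0.17, interval -0.32 to 0.43) at E12.5. In the annotation, 135 exonic bases of *Irf1* overlap *Gm17334* on the other strand, and since strand use in counting was not stated, reads of the pair cannot be told apart.

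*Irf7*, the factor that amplifies the type I response and is itself induced by it (chromosome 7, 141262706 to 141266481, minus strand), had 4, 1 and 2 reads in E11.5 controls and 6, 9 and 4 in E11.5 mutants. The counts were 7, 10 and 6 in E12.5 controls and 2, 3 and 11 in E12.5 mutants. After scaling, the mutants were higher than all controls at E11.5 and overlapped with them at E12.5. It did not pass the filter. In the fit without a filter its log2 fold change was 1.42 (adjusted p = 0.686, SE 0.79) at E11.5 and -0.43 (adjusted p = 0.773, SE 0.69) at E12.5, in edgeR over 17464 and 16789 genes. Its last 45 exonic bases overlap *Phrf1* on the other strand.

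*Ifit2*, *Ifit1* and *Ifit3* are neighbours on chromosome 19, at 34550694 to 34576419, 34640871 to 34650009 and 34583531 to 34588731, and encode proteins with tetratricopeptide repeats that bind foreign RNA or block its translation. *Ifit2* had 232, 224 and 243 reads in E11.5 controls and 266, 252 and 165 in E11.5 mutants. It had 305, 335 and 305 reads in E12.5 controls and 281, 307 and 204 in E12.5 mutants. The groups overlapped at both stages, and the log2 fold changes were 0.01 (adjusted p = 0.995, SE 0.16, interval -0.35 to 0.36) and -0.19 (adjusted p = 0.450, SE 0.13, interval -0.48 to 0.10).

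The other *Ifit* members were close to absent. *Ifit1* had 4, 1 and 1 reads in E11.5 controls, 0, 0 and 2 in E11.5 mutants, 3, 3 and 3 in E12.5 controls and 2, 1 and 1 in E12.5 mutants. *Ifit3* had 3, 0 and 6 reads in E11.5 controls, 3, 2 and 4 in E11.5 mutants, 5, 4 and 3 in E12.5 controls and 5, 4 and 1 in E12.5 mutants. At these counts a difference was not detectable: a count of 0 allows up to 3 reads, or 0.172 to 0.25 CPM depending on the library. Without the filter, the E12.5 log2 fold change was -1.03 for *Ifit1* (adjusted p = 0.624, SE 0.95) and -0.19 for *Ifit3* (adjusted p = 0.922, SE 0.79). *Ifit1* and *Ifit3* have paralogs in the mouse that were counted as genes of their own, and how any shared reads were split was not stated.

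*Isg15*, a ubiquitin-like protein that is conjugated to other proteins in interferon-treated cells (chromosome 4, 156199424 to 156200818, minus strand), had 27, 0 and 4 reads in E11.5 controls and 1, 4 and 9 in E11.5 mutants. In E12.5 hearts it had 9, 10 and 8 reads in controls and 7, 8 and 2 in mutants. The highest library of all 12 was thus a control, E11.5 control 1, at 1.76 CPM. E12.5 controls held 0.550 ± 0.0524 CPM and E12.5 mutants 0.355 ± 0.194 with no overlap, mutants lower, and the log2 fold change was -0.59 (adjusted p = 0.557, SE 0.53, interval -1.75 to 0.57). At E11.5 it was -1.01 (adjusted p = 0.880, SE 1.19), and it ranged from -2.08 without E11.5 mutant 3 to -0.49 without E11.5 mutant 1.

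*Oasl2*, a member of the oligoadenylate synthetase-like family (chromosome 5, 114896936 to 114912234), had 21, 22 and 25 reads in E11.5 controls and 24, 3 and 22 in E11.5 mutants. It had 10, 15 and 16 reads in E12.5 controls and 22, 34 and 28 in E12.5 mutants. All E12.5 mutants were above all E12.5 controls, while E11.5 mutant 2 was far below every other library. *Oasl2* did not pass the filter. Without it, the E12.5 log2 fold change was 1.09 (SE 0.36, interval 0.34 to 1.84, unadjusted p under 0.05), which did not pass after adjustment over 16789 genes (adjusted p = 0.0899, edgeR), and the E11.5 value was -0.36 (adjusted p = 0.896, SE 0.59).

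Across the set, 1 of the 5 tested genes was called at E12.5, against 2.95% of all tested genes, and 0 at E11.5, where edgeR also gave 0 of the 5 an unadjusted p under 0.05 and DESeq2 called 0. The median log2 fold change of the 5 was 0.01 at E11.5 and -0.19 at E12.5, and that of all tested genes was 0.00 at both stages. Over both stages 0 of the 5 were called, against 3.22% of 12270 genes, and 1 of them, *Bst2*, had an adjusted p of at most 0.05 at any fold, against 6.85%. No overlap between genotypes was seen at E11.5 for 1 of the 9 genes (*Irf7*) and for 0 of the 5 tested, where it was seen for 16.4% of tested genes. At E12.5 it was seen for 5 of the 9, 2 higher in mutants (*Bst2* and *Oasl2*) and 3 lower (*Stat2*, *Isg15* and *Ifit1*), and for 3 of the 5 tested, where the share among tested genes was 26.4%. Of these, *Isg15* passed the filter through the controls alone, and its lowest E12.5 control (0.492 CPM) was barely above its highest E12.5 mutant (0.468). *Ifit1* had at most 3 reads in an E12.5 library, too few to show a difference. For the difference of the genotype effect between stages, edgeR called 0 of 12270 genes (0%), with 551 at an unadjusted p under 0.05 and 43 called by DESeq2; the 5 tested members had adjusted p from 0.956 to 0.983, 0 of them had an unadjusted p under 0.05, and DESeq2 called 0 of them.

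**Figure D2:**
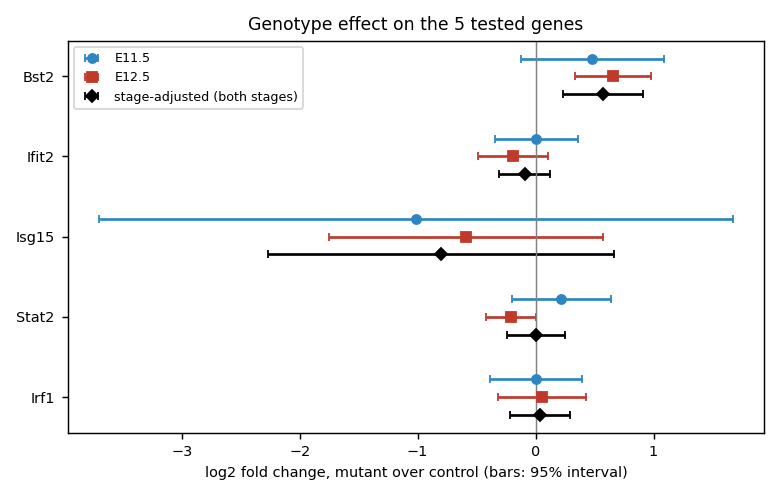
Log2 fold change of mutant over control for the 5 tested genes at E11.5 (circles), E12.5 (squares) and over both stages with stage as a covariate (diamonds); bars are 95% intervals from edgeR's standard errors. The interval of *Bst2* lies above 0 at E12.5 (0.34 to 0.98) and over both stages, and the intervals of the other genes include 0.

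Between stages, with genotype as a covariate, 3.78% of 12270 genes were called and 0 of the 5 tested members. In this comparison stage cannot be told apart from any litter or library day. *Stat2* was higher at E12.5 by a log2 fold change of 0.32 (adjusted p = 0.0742, SE 0.11) and *Bst2* was lower by -0.37 (adjusted p = 0.124, SE 0.16). In both cases the unadjusted p was under 0.05, at 0.0138 and 0.0345, and neither passed. DESeq2 also called 0 of the 5.

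The 5 tested members did not share a pattern over the 12 libraries. The Pearson correlation of log2 CPM was 0.84 for *Ifit2* and *Irf1*, and it was negative for *Bst2* with *Ifit2* (-0.57), *Stat2* (-0.38) and *Irf1* (-0.37). These values describe libraries that also differ in stage and genotype. Among the genes whose levels followed the mean standardized level of the 5 most closely were *Slc12a2* (r = 0.92), *Ddhd1* (0.91), *Tcf15* (0.91), *Actr3b* (0.90), *Dnaja4* (0.89), *Slfn5* (0.84), *Tifa* (0.82), *Sertad4* (0.82) and *Ppm1b* (0.81), over the same 12 libraries.

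Transcripts of the interferons themselves were next to absent. Of 21 interferon alpha, beta, gamma, epsilon, kappa, zeta and lambda genes, 11 had no read in any library and the other 10 had 19 reads in all 12 libraries together, with at most 2 reads of a gene in a library. *Ifnb1* had 0 reads in every library. None of the 21 was tested.

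The receptors and signal transducers were expressed and were not called. Of 11 genes for interferon receptors, JAK kinases and other STATs, 10 were tested, and 0 were called at E11.5, E12.5 or over both stages by edgeR or by DESeq2. At E12.5 9 of the 10 log2 fold changes were below 0, and the median was -0.09 (all genes: 0.00). Of the 10, 3 had an unadjusted p under 0.05 in edgeR, against 2621 of all 12257 genes. *Jak1*, the kinase shared by the interferon receptors, stood at 185 ± 7.78 and 161 ± 3.29 CPM (-0.19, adjusted p = 0.141, SE 0.07). *Jak2*, which serves the interferon gamma receptor, stood at 59.1 ± 2.49 and 49.5 ± 3.56 CPM (-0.24, adjusted p = 0.127, SE 0.08). The receptor chains *Ifngr1* and *Ifngr2* had log2 fold changes of -0.06 (adjusted p = 0.740) and -0.16 (adjusted p = 0.228). Of 9 further interferon regulatory factors and partners, 8 were tested and 0 were called by genotype with edgeR or DESeq2. At E12.5 1 of the 8 had an unadjusted p under 0.05 in edgeR (2621 of all 12257 genes). *Irf3*, the factor that sensors activate, was at 51.0 ± 2.14 and 47.2 ± 3.52 CPM at E12.5 (-0.10, adjusted p = 0.546, SE 0.08). *Irf5*, a factor used by myeloid cells, was at 12.0 ± 1.14 and 9.87 ± 0.641 CPM (-0.27, adjusted p = 0.281, SE 0.13), *Irf8* at 4.97 ± 0.821 and 5.28 ± 1.98 (0.10, adjusted p = 0.869, SE 0.26), and *Irf2bp2* at 50.8 ± 3.40 and 58.1 ± 4.68 (0.21, adjusted p = 0.215, SE 0.09).

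Of 18 sensors of nucleic acid and their adaptors, 16 were tested at E12.5 and 15 over both stages. In each of these fits 1 was called, *Aim2*, higher in mutants, against 2.95% and 3.22% of all tested genes. AIM2 binds DNA in the cytosol and assembles an inflammasome, and it is interferon-inducible. Its CPM was 11.2, 10.7 and 9.33 in E11.5 controls and 17.5, 26.0 and 22.9 in E11.5 mutants. At E12.5 it was 12.9, 16.8 and 15.1 in controls and 26.9, 29.9 and 21.4 in mutants. All mutants were above all controls at both stages. The log2 fold change was 0.81 (adjusted p = 0.0116, SE 0.14) at E12.5, 1.09 (adjusted p = 0.0815, SE 0.19) at E11.5 and 0.95 (adjusted p = 0.000574, SE 0.12) over both stages. DESeq2 also called it at E11.5 (adjusted p = 0.000163). The E12.5 call was lost without E12.5 control 1 (0.72, adjusted p = 0.0521), and the call over both stages held in all 12 fits that left out a library (adjusted p at most 0.00232). Of the other tested sensors none was called. *Ikbke*, an interferon-induced kinase of this pathway, went from 7.66 ± 1.04 to 11.1 ± 0.853 CPM at E12.5 (0.55, adjusted p = 0.0654, SE 0.15). *Tlr3* (-0.61, adjusted p = 0.149, SE 0.22) and the adaptor *Mavs* (-0.21, adjusted p = 0.242, SE 0.10) had negative values.

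Of 50 other antiviral genes induced by interferon, 46 had reads and 28 were tested at each stage. At E12.5 1 was called, higher in mutants (2.95% of all tested genes), with 10 at an unadjusted p under 0.05 (2621 of all 12257). Over both stages 2 were called, both higher (3.22% of all). At E11.5 edgeR called 0, with 5 at an unadjusted p under 0.05 (1242 of all 12197), and DESeq2 called 0. The median log2 fold change was 0.10 at E11.5 and -0.07 at E12.5. *Trim30a*, of the tripartite motif family, had 1.65, 1.02 and 1.54 CPM in E12.5 controls and 3.88, 2.92 and 2.75 in E12.5 mutants, with no overlap. It rose by a log2 fold change of 1.20 (adjusted p = 0.0385, SE 0.29) at E12.5 and 1.24 (adjusted p = 0.0257, SE 0.31) over both stages. It passed the filter of 0.5 RPKM through the mutants alone (0.363 RPKM in controls and 0.850 in mutants over both stages), so a gene entering the test in this way had to differ. The E12.5 call was lost in each of the 6 fits that left out a library (log2 fold change up to 1.33, adjusted p 0.0514 to 0.135), the call over both stages was lost in 4 of 12, without E11.5 control 3, E11.5 mutant 2, E12.5 control 2 or E12.5 mutant 1 (adjusted p up to 0.0656), and *Trim30a* has close paralogs beside it whose reads may be shared.

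*Oas1c*, of the oligoadenylate synthetase family, was at 1.23 ± 0.179 and 2.62 ± 0.618 CPM at E11.5 and at 0.886 ± 0.212 and 1.78 ± 0.727 at E12.5, and it rose over both stages (1.05, adjusted p = 0.0177, SE 0.24). It too passed the filter through the mutants alone (0.462 and 0.962 RPKM), and reads may be shared with other genes of its cluster. *Lgals3bp*, a secreted glycoprotein, was at 2.15 ± 0.284 and 4.73 ± 1.07 CPM at E11.5, with all mutants higher, and at 2.98 ± 0.173 and 3.47 ± 0.423 at E12.5 (0.68 over both stages, adjusted p = 0.0559, SE 0.20), which did not pass. Genes that passed the adjusted p with a lower level in mutants, under the fold limit, were also present. *Parp12*, an antiviral ADP-ribosyltransferase, went from 15.7 ± 0.845 to 11.0 ± 0.814 CPM at E12.5 (-0.49, adjusted p = 0.0418, SE 0.12), and its adjusted p was above the threshold in each of the 6 fits without a library (0.0554 to 0.137), with the sex term (0.0567), with the replicate block (0.0546) and with all 12 libraries in one fit (0.273). *Ddx58*, which encodes the RNA sensor RIG-I, was at 12.3 ± 1.28 and 7.41 ± 1.42 CPM at E11.5 and at 14.1 ± 1.59 and 10.9 ± 1.76 at E12.5 (over both stages -0.53, adjusted p = 0.0245, SE 0.13), and it did not pass without E11.5 control 1, E11.5 control 3, E12.5 control 2 or E12.5 mutant 3 (adjusted p up to 0.0557). In all, 2 of the 28 antiviral genes tested were higher and 1 lower over both stages at an adjusted p of at most 0.05 (6.85% of all 12270 genes). At E12.5 there was 1 of each (613 of all 12257 genes). The higher ones, *Trim30a* and *Oas1c*, passed the filter through the mutants alone.

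*Rsad2*, which encodes the antiviral enzyme viperin, was chosen after its values were seen. It had 0.457, 0.129 and 0.561 CPM in E11.5 controls and 0.577, 0.608 and 0.516 in E11.5 mutants. At E12.5 it had 8.05, 4.74 and 5.41 CPM in controls and 3.21, 2.80 and 0.916 in mutants. Its level was higher at E12.5 than at E11.5 by a log2 fold change of 3.0 (adjusted p = 0.00162, SE 0.43), where stage cannot be told apart from any litter or library day. It was under the filter at E11.5 and entered the fit of 12 libraries through E12.5, so it had to differ between stages once tested. All E12.5 mutants were below all E12.5 controls (-1.37, adjusted p = 0.0600, SE 0.37), which did not pass.

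**Figure D3:**
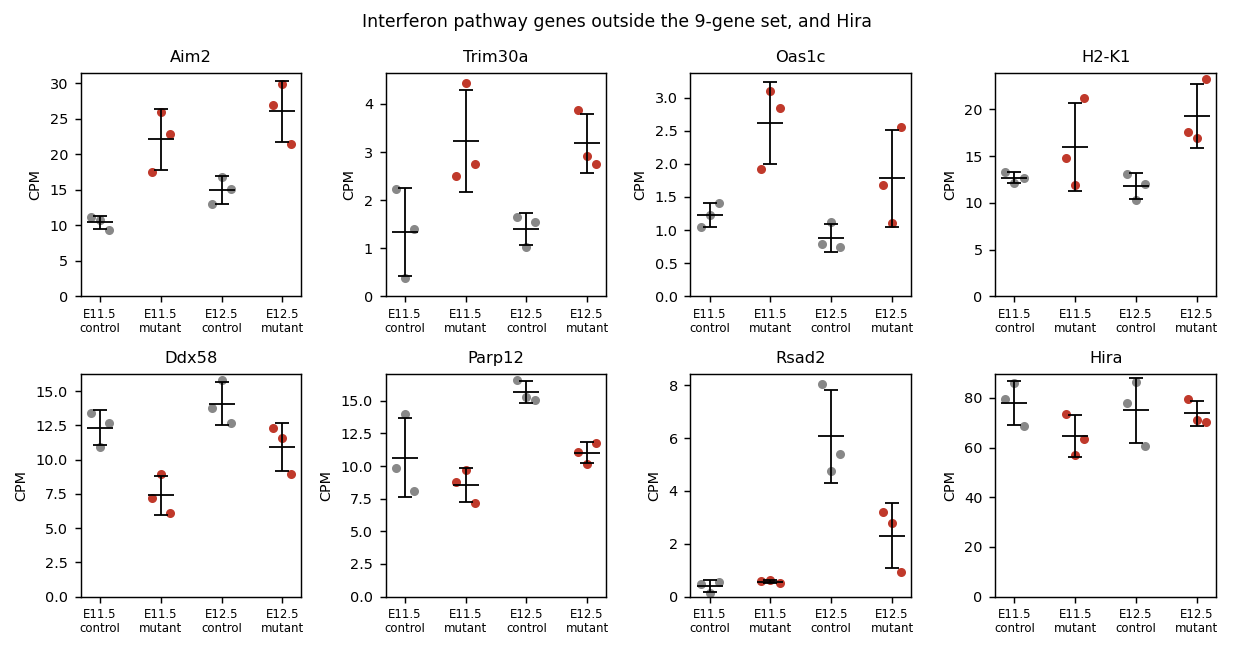
CPM of 7 interferon pathway genes outside the set, and of *Hira*, in each library, on linear axes that start at 0; points are libraries, the bar is the mean and the whiskers are 1 SD. *Aim2* and *Trim30a* lie higher in mutants than in controls at both stages without overlap, while *Ddx58* lies lower at both stages and *Parp12* and *Rsad2* lie lower at E12.5.

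Of 27 genes of the interferon gamma response and of antigen presentation, 14 were tested at E11.5 and 17 at E12.5. At E11.5 edgeR called 0, with 1 at an unadjusted p under 0.05 (1242 of all 12197 genes), and DESeq2 called 0. At E12.5 1 was called, against 2.95% of all tested genes. *H2-K1*, a class I heavy chain that displays peptides at the cell surface, had 13.1, 10.3 and 12.0 CPM in E12.5 controls and 17.6, 17.0 and 23.2 in E12.5 mutants, and it rose by a log2 fold change of 0.72 (adjusted p = 0.0224, SE 0.15). That call was lost without E12.5 control 1 (adjusted p = 0.0546), control 2 (0.0824) or mutant 3 (0.0560), and reads of class I genes can be split between close paralogs. At E11.5 the value was 0.33 (adjusted p = 0.718, SE 0.22). *Irgm2*, an interferon-inducible GTPase, had 2.65 ± 0.214 and 1.32 ± 0.236 CPM at E12.5 and fell over both stages (-0.71, adjusted p = 0.0409, SE 0.19). It passed the filter through the controls alone (0.631 RPKM against 0.374 in mutants), so it had to differ once tested, and the call was lost in 6 of 8 fits without a library in which it was tested (adjusted p up to 0.1). *Iigp1*, another such GTPase, was uneven in E11.5 hearts, at 17.5, 14.02 and 38.9 CPM in controls and 16.9, 0.972 and 4.22 in mutants (-1.65, adjusted p = 0.526, SE 0.77). *Socs1*, the feedback inhibitor of the JAK kinases, differed by 0.34 log2 units (adjusted p = 0.294, SE 0.17) over both stages.

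**Figure D4:**
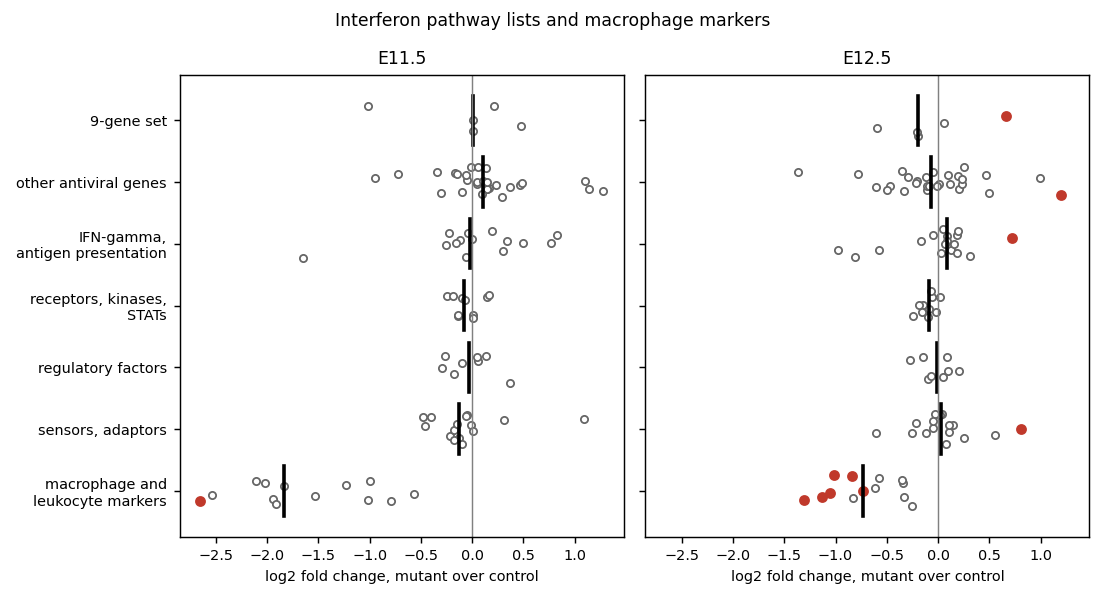
Log2 fold change of mutant over control for each tested gene of 6 interferon pathway lists and of the macrophage and leukocyte markers, at E11.5 (left) and E12.5 (right); each circle is a gene, red circles were called, and the black line is the median of the list. The medians of the pathway lists lie between -0.19 and 0.10, and that of the macrophage markers is -1.84 at E11.5 and -0.73 at E12.5.

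Other genes of the HIRA pathway were read beside the set. Of 9 genes of the complex, its partners and H3.3, all tested, 0 were called by edgeR or DESeq2 in the genotype comparisons. At E12.5 3 of the 9 had an unadjusted p under 0.05 in edgeR (2621 of all 12257 genes). *H3f3b*, which encodes H3.3, went from 306 ± 12.1 to 420 ± 3.75 CPM at E12.5 (0.47, adjusted p = 0.00495, SE 0.07, and 0.075 as adjusted p with all 12 libraries in one fit), under the fold limit. *H3f3a*, the other H3.3 gene, was at 452 ± 27.0 and 547 ± 39.7 CPM (0.29, adjusted p = 0.0643, SE 0.08), and the chaperone *Asf1a* at 42.4 ± 4.6 and 52.3 ± 4.96 (0.32, adjusted p = 0.109, SE 0.10). *Daxx*, a chaperone of H3.3 apart from HIRA, had a log2 value of 0.13 over both stages (adjusted p = 0.354, SE 0.07).

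Markers of other cell types in the heart also differed between the genotypes. The 16 macrophage and leukocyte markers summed to 87.1 to 173 CPM in E11.5 controls and 42.4 to 49.1 in E11.5 mutants, and to 151 to 194 and 80.4 to 106 at E12.5. Of the 13 tested, edgeR called 1 at E11.5 (8 by DESeq2) and 6 at E12.5, against 0.115% and 2.95% of all tested genes. All were lower in mutants, among them the defining markers *Csf1r* (20.5 ± 4.57 against 34.4 ± 5.35 CPM at E12.5), *Adgre1* (3.49 ± 1.18 against 7.70 ± 2.37) and *Mrc1* (12.6 ± 3.36 against 31.6 ± 2.68). The others called at E12.5 were *Lyz2*, *Cx3cr1* and *Tyrobp* (log2 fold changes of -1.06, -0.84 and -1.01), the E11.5 call was *C1qb* (-2.66), and *Fcer1g* was called over both stages (-1.02). The interferon pathway genes at an edgeR adjusted p of at most 0.05 by genotype went both ways. *Bst2*, *Aim2*, *H2-K1*, *Trim30a* and *Oas1c* were higher in mutants, and *Parp12*, *Ddx58* and *Irgm2* were lower. Of these, *Trim30a*, *Oas1c* and *Irgm2* passed the filter through the genotype in which they were higher. The 9 erythroid markers with reads summed to 3825 to 6303 CPM in E12.5 controls and 2082 to 2695 in E12.5 mutants. There 5 were called (2.95% of all tested genes), all lower, the globins *Hbb-y*, *Hbb-bh1*, *Hba-x* and *Hba-a1* and the anion exchanger *Slc4a1* (-0.73 to -1.64). Their sums overlapped at E11.5, at 4368 to 5448 CPM in controls and 4410 to 5654 in mutants. At that stage 6 of the 9 log2 fold changes were above 0 and 0 were called. *Epor*, the erythropoietin receptor, was at 0.33 over both stages (adjusted p = 0.270). The 8 endothelial markers were all higher in mutants at E11.5, with a median log2 fold change of 0.49. Of the 8, 5 had an unadjusted p under 0.05 in edgeR (1242 of all 12197 genes), and 0 were called by edgeR or DESeq2. The 8 summed to 978 to 1188 CPM in controls and 1187 to 1653 in mutants. Over both stages all 8 were above 0, and *Pecam1* (0.38, adjusted p = 0.0264, SE 0.09) and *Egfl7* (0.54, adjusted p = 0.00766, SE 0.10) passed the adjusted p under the fold limit, while *Tie1* (0.37, adjusted p = 0.0566) and *Erg* (0.29, adjusted p = 0.203) did not pass. At E12.5 6 of the 8 endothelial log2 fold changes were above 0, with a median of 0.07. At that stage the 8 summed to 1262 to 1299 CPM in controls and 1233 to 1513 in mutants. EdgeR and DESeq2 called 0, with 3 at an unadjusted p under 0.05 in edgeR (2621 of all 12257 genes). *Egfl7* was higher under the fold limit (0.57, adjusted p = 0.0123, SE 0.10). Of the cardiomyocyte markers, *Tnnt2*, *Myl7*, *Ttn* and *Myl3* had the lowest p over both stages and did not pass (adjusted p = 0.239 to 0.403). The 6 liver markers summed to 6.70 to 11.5 CPM in E12.5 controls and 10.7 to 56.9 in mutants, with 18.5 CPM of *Alb* in E12.5 mutant 1. Without that library *Bst2* had an E12.5 log2 fold change of 0.61 and was not called. *Alb* was called over both stages (3.99, adjusted p = 0.0450) and passed the filter through the mutants alone (0.0991 and 1.66 RPKM), while *Afp*, *Ttr* and *Apoa1* did not pass (adjusted p = 0.440 to 0.929). The part of these cell types in the interferon-stimulated genes was not tested.

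**Figure D5:**
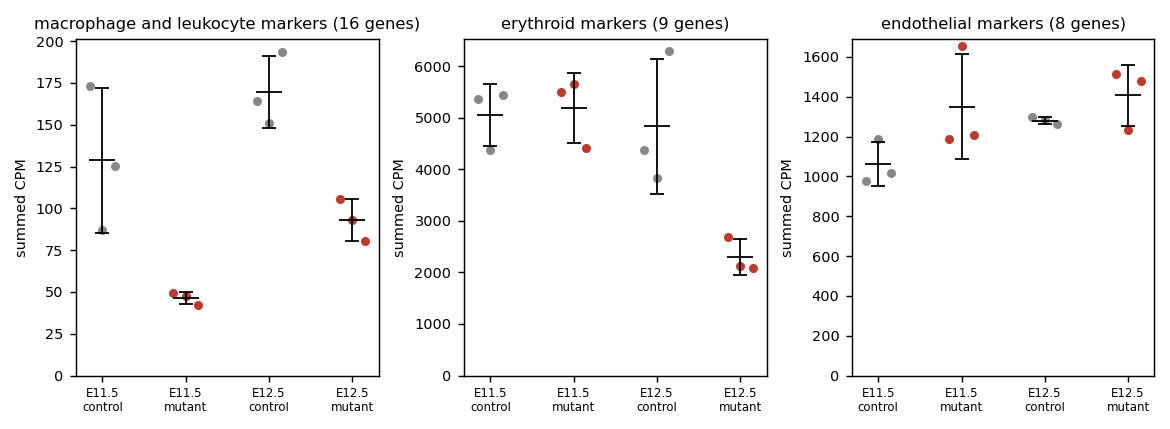
Summed CPM of the markers of macrophages and leukocytes, erythroid cells and endothelium in each library, on linear axes that start at 0; points are libraries, the bar is the mean and the whiskers are 1 SD. The macrophage sum is lower in mutants at both stages (42.4 to 49.1 against 87.1 to 173 CPM at E11.5), the erythroid sum is lower in mutants at E12.5, and the endothelial sum overlaps narrowly at E11.5 (978 to 1188 against 1187 to 1653 CPM) and at E12.5.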

How the data were processed

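RNA-seq of embryonic hearts was deposited as 1 table of values named RPKM for 12 libraries and 2 comparisons of genotype. Per the labels and the study's methods, reads were aligned to mm10 with Bowtie2 and normalised with DESeq, and the counting program, annotation and strand use are not given in the sources used here. Tested on the file, the deposited values are a score made by the authors, each a whole count multiplied by gene length and a library factor. The group averages deposited by the authors are expected counts, whole after multiplying by 3, and with them the counts of 17827 genes were recovered to within 5.68e-10 of whole numbers, while 1597 genes had none. The authors' fold changes and p-values were not used. Because counts were recovered, they were tested with edgeR 4.0.16 (quasi-likelihood, TMM, mean RPKM at least 0.5). On data simulated for E12.5, 85 of 86 genes changed by a log2 fold change of 1 were called, with 8 false calls. Every simulated gene had the same dispersion, and the changed genes were drawn from those above a floor of reads. The share recovered therefore does not give the power for members with few reads or a wider spread.

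The 9 genes, the gene lists and the tests were chosen with earlier results of these data known. The genes named are the 9, *Hira*, the genes of each list with an adjusted p of at most 0.05 or among the 4 lowest p over both stages, and the 10 genes most like the set, of which 1 is not reported here. Of 207 listed symbols, 201 were matched, and the other 6 were not analysed here. Alternatives were no filter, a filter at 2 RPKM, scaling by median ratios, DESeq2 1.42.0, a replicate block, all 12 libraries in one fit, no fold limit, a sex term and each library left out. Coordinates are on GRCm38.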

Additional observations from a re-analysis of the deposited data

How the results depend on the processing

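The member count at E11.5 stayed at 0 under every alternative tried. At E12.5 it went from 1 to 0 with all 12 libraries in one fit and ranged from 0 to 1 with a library left out, and over both stages it went from 0 to 1 with no fold limit, with the sex term and, among fits without a library, ranged from 0 to 1. For the difference between stages and for E12.5 against E11.5 the member count stayed at 0. Among all genes, the 14 calls at E11.5 became 248 with DESeq2, 221 with all 12 libraries in one fit, 73 without the filter, 29 with the sex term and 0 to 15 with a library left out. The 362 calls at E12.5 became 132 with all 12 libraries in one fit, 613 with no fold limit and 151 to 368 with a library left out. The 395 calls over both stages became 231 at a mean RPKM of at least 2 and 840 with no fold limit. The 0 genes with a difference between stages became 43 with DESeq2 and 0 to 10 with a library left out. The 464 calls between stages became 274 at a mean RPKM of at least 2 and 1501 with no fold limit. With the replicate number as a block, calls at E11.5 went from 14 to 73, and those at E12.5 from 362 to 424; the correlation of same-numbered libraries' deviations was 0.00283 to 0.401 at E11.5 and 0.0271 to 0.0622 at E12.5, above 0.1 in some pairs and not in others, and the labels name no pairing, so the libraries were not taken as paired. The member counts under the block were the same.

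Of 215 recomputed log2 fold changes of the 5 tested members, 184 kept their direction and side of the threshold, 5 lost a call and 3 gained one, all 8 of *Bst2*, and 23 changed sign. The changes of sign were all of values that were not called: at E11.5 *Ifit2* (0.01) became -0.0017 without the filter, -0.11 with the sex term and -0.068 to 0.075 with a library left out, *Irf1* (0.01) became -0.0024, -0.065 and -0.074 to 0.11, and *Isg15* (-1.01) became 0.19 with the sex term and -2.08 to -0.49 with a library left out. At E12.5 *Irf1* (0.06) ranged from -0.061 to 0.24 with a library left out. Over both stages *Irf1* (0.03) ranged from -0.023 to 0.11, and *Stat2* (0.0042) became -0.0091 without the filter, -0.073 with the sex term and -0.085 to 0.046 with a library left out. The cause of these changes was not tested. With 3 libraries a group, and at most 34 reads a library for *Oasl2*, *Isg15*, *Irf7*, *Ifit3* and *Ifit1*, depth limits what those members can show.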
